A study of Macaca mulatta with 24 samples.

Results

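The genes described here encode 10 proteins that modify and process ribosomal RNA in the nucleolus: FBL, NOP56, NOP58, NCL, NPM1, DKC1, NHP2, NOP10, GAR1 and NOLC1. They were chosen by name, and every non-control probe that the scanner files assign to 1 of these names was taken, which gave 13 probes of 43603 for 8 of the 10 genes. No probe carried the name NPM1 or NOP10, and these genes were not analysed here. All 13 probes were bright enough to be tested, so the 8 genes are 8 of 10884 tested genes with a symbol.

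Whole blood was drawn from adult Rhesus macaques of Chinese origin, males and females, before and after total body irradiation with 4 Gy, and the globin-depleted RNA was hybridised to 24 one-colour Agilent arrays. The groups were Pre-irradiation with 7 arrays at 0 Gy, and Day 3 with 4 arrays, Day 5 with 6 arrays and Day 7 with 7 arrays after 4 Gy. None of the 24 arrays came from sham-irradiated animals, so time in the study and irradiation cannot be told apart. Labels and methods differ on the source (X-rays or a cobalt gamma source) and on the time of the first blood sample (day 0 or some days earlier). Replicate numbers 1 to 7 marked animals, 4 of which were on the array at Day 3 and 6 at Day 5. Of the 12 arrays scanned in session 1, 6 were Pre-irradiation and 6 Day 7, while session 2 held all Day 3 and Day 5 arrays with 1 Pre-irradiation and 1 Day 7 array (both replicate 5). Between 48.3 and 61.2% of probes were well above background on an array, and Day 7 replicate 2 was the dimmest array, with a median processed signal of 16.8 against 30.5 to 104 on the others. The number of arrays limits the precision.

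Ribosomal RNA is copied in the nucleolus by RNA polymerase I as a long precursor, which is cut, folded and chemically modified while ribosomal proteins bind to it. Small nucleolar RNAs guide most of the modifications by base pairing with the precursor, and each works inside a particle with a fixed set of core proteins. Box C/D particles add methyl groups to ribose through FBL (fibrillarin), held by NOP56, NOP58 and SNU13, and H/ACA particles convert uridine to pseudouridine through DKC1 (dyskerin), held by NHP2, NOP10 and GAR1. NCL (nucleolin) binds nascent precursor, NPM1 (nucleophosmin) is a chaperone of ribosome assembly, and NOLC1 is a scaffold that moves between the nucleolus and Cajal bodies. Mature granulocytes make few new ribosomes, whereas lymphocytes raise production when they are activated.

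An array reads a gene only at its probe, so the place of the probes matters for what follows. NOP56 has 3 probes along 1 transcript, starting at base 730, base 1351 and base 1891, and their changes differ. In the rheMac2 build given in the files they lie at chr10:35965978-35966037, chr10:35967455-35967700 and chr10:35968908-35968967 on the plus strand. The 60 bases of the middle probe are spread over 246 bases of the genome. The first and middle NOP56 probes and the GAR1 probe (chr5:102720844-102720903), all read from the scanner files 5′ to 3′ with no part set apart in capitals, are:
NOP56, start at base 730: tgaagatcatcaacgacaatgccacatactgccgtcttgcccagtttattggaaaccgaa
NOP56, start at base 1351: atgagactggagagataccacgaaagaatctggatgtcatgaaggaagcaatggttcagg
GAR1, start at base 429: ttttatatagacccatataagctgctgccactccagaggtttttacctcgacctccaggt

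Hexamers that often stand near the end of a message were looked for in the probes. The probes of FBL (chr19:46195541-46195600, minus strand), NOP58 (chr12:66136915-66136974, plus strand) and 1 of the 3 NCL probes contain AATAAA or ATTAAA, the letters of the common polyadenylation signals. The hexamer was searched on the strand of the probe, and 3 of the 13 probes held it (23.1%) against 11.4% of all 43603 probes. The match describes the letters of the probe and is not a mapped site. The 30 bases around it, with the hexamer in capitals, show the letters that these 3 probes read:
FBL: gtgtgtttttctATTAAAagactcatccgt
NOP58: ctttgatatacaAATAAAattttctttgta
NCL, start at base 2741: cagcggctttaggacaaATTAAAagtcaac

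The files place the other members at chrX:152771191-152771250 (DKC1), chr6:174716467-174716526 on the minus strand (NHP2), and chr9:101822216-101822275 and chr9:101823585-101823644 (NOLC1, 2 probes). The 3 probes named NCL do not share a locus: the files put the brightest at chr5:120842711-120842770 and the probe with the hexamer at chr4:7795036-7795097, and give no position for the dim one, so at most 1 of the mapped probes can lie in the NCL gene itself. Values named NCL are therefore uncertain. Where a gene had several probes it is represented by the one with the highest mean signal, and the others are given beside it. Levels are the log2 processed signal after each array was shifted to the median array, and they are compared between arrays for 1 probe. Levels of different probes are not ranked against each other, and for NOP56 the gap between probes of 1 array is compared only across arrays.

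Across the 8 genes, 2 were lower at Day 3 than before irradiation at the threshold used throughout, a Benjamini-Hochberg adjusted p under 0.005 over all tested probes (limma, two-sided). These were FBL and NOP56, against 7.58% of all genes lower at Day 3. At Day 5 the same 2 genes were lower, against 9.12% of all genes, and at Day 7 FBL alone was lower, against 7.18% of all genes. No member was higher on any day, against 5.96, 6.24 and 2.67% of all genes. With the animal as a block 0, 2 (FBL and NOP58) and 0 members were lower on the 3 days, against 1.89, 8.73 and 6% of all genes. With the scan session as a block none passed at Day 3 or Day 5. The Day 3 count ran from 0 to 3 with each replicate left out. For Day 3, Day 5 and Day 7 in turn, the 8 genes had a median log2 change of −0.68, −0.54 and −0.25, where the median over all tested genes was 0, 0 and −0.01. The members' median was −0.61, −0.39 and −0.13 with quantile normalization and −0.51, −0.31 and −0.09 with normexp background correction and quantile normalization. On each day 7 of the 8 values were below 0 and NCL was the exception, although at Day 3 NCL too was below 0 with the mean of its probes (−0.09) and GAR1 was above 0 with normexp (0.21). The 3 comparisons share the 7 Pre-irradiation arrays. In whole blood, fewer cells of a type and less RNA per cell cannot be told apart.

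**Figure D1:**
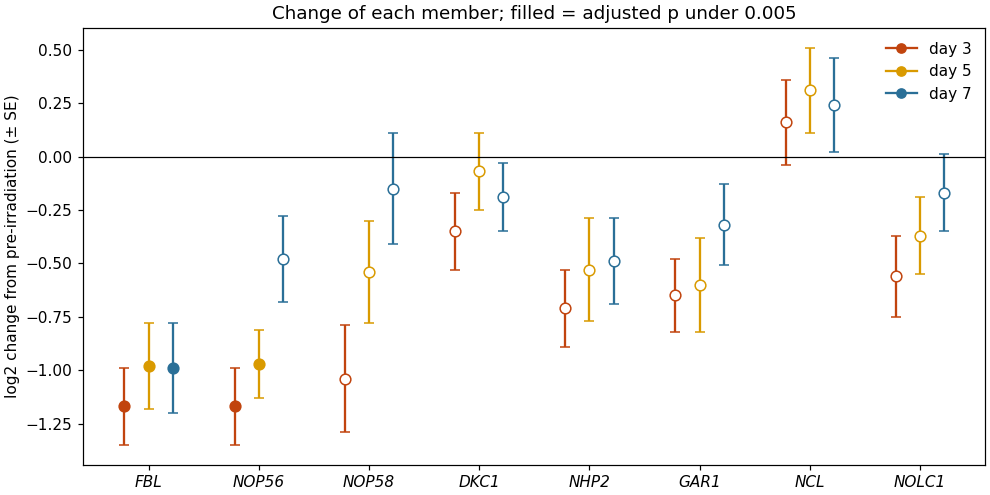
Log2 change from Pre-irradiation of the 8 genes, each by its brightest probe, at Day 3 (n = 4; 3 for GAR1), Day 5 (n = 6) and Day 7 (n = 7) against 7 arrays; bars are the standard error and filled points have an adjusted p under 0.005. FBL is at −1.17, −0.98 and −0.99 (−0.89, −0.51 and −0.30 with quantile normalization), NOP56 moves from −1.17 to −0.48, and NCL lies above 0 (at Day 3 below 0 with the mean of its probes).

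Among the box C/D proteins, FBL, the methyltransferase itself, had levels of 16.04, 16.76, 16.70, 16.52, 16.41, 16.05 and 16.13 before irradiation in replicates 1 to 7. At Day 3 it was at 15.17, 15.21, 15.09 and 15.34 in replicates 1, 2, 4 and 7. At Day 5 it ran from 14.81 to 15.93 with a median of 15.36, and at Day 7 from 14.63 to 15.91 with a median of 15.45. With arrays shifted to the median array, no irradiated array reached the lowest Pre-irradiation array. In these levels the groups do not overlap on any day. The change was −1.17 ± 0.18 (SE) at Day 3 (2.25-fold lower, adjusted p = 0.000846), −0.98 ± 0.20 at Day 5 (1.97-fold lower, adjusted p = 0.00232) and −0.99 ± 0.21 at Day 7 (1.99-fold lower, adjusted p = 0.00271). The level was lower than the animal's own first sample in 4 of 4, 6 of 6 and 7 of 7 animals. With the animal as a block FBL missed the threshold at Day 3 (−1.16, adjusted p = 0.0135) and Day 7 (−0.99, adjusted p = 0.00915) and kept its Day 5 call. It also missed it without replicate 4 at Day 3 (adjusted p = 0.00918), without replicate 1, 2, 3, 6 or 7 at Day 5 (adjusted p up to 0.0135), and without replicate 1, 2, 3, 5 or 7 at Day 7 (adjusted p up to 0.0113), always with a lower level.

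The size of the FBL change and its course over the days depended on the scaling. With quantile normalization in place of the shift to the median array, it was −0.89 at Day 3 (adjusted p = 0.00188), −0.51 at Day 5 (adjusted p = 0.0314) and −0.30 at Day 7 (adjusted p = 0.218). With normexp background correction and quantile normalization it was −0.94 (adjusted p = 0.000328), −0.60 (adjusted p = 0.00352) and −0.37 (adjusted p = 0.0941). The FBL call was also missed in the authors' normalized values at Day 5 (adjusted p = 0.00587) and Day 7 (adjusted p = 0.00541), and with no filter on dim probes at Day 7 (adjusted p = 0.00559). Within scan session 1, with 6 arrays a side, FBL was −1.02 at Day 7 and all 6 arrays lay below the 6 Pre-irradiation arrays. On the 3 slides of that session the difference was −0.49, −1.69 and −0.87. Day 3 and Day 5 can be set within session 2 only against Pre-irradiation replicate 5, which gave −1.21 and −1.01, and with the session as a block the adjusted p was 0.0728 and 0.165.

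**Figure D2:**
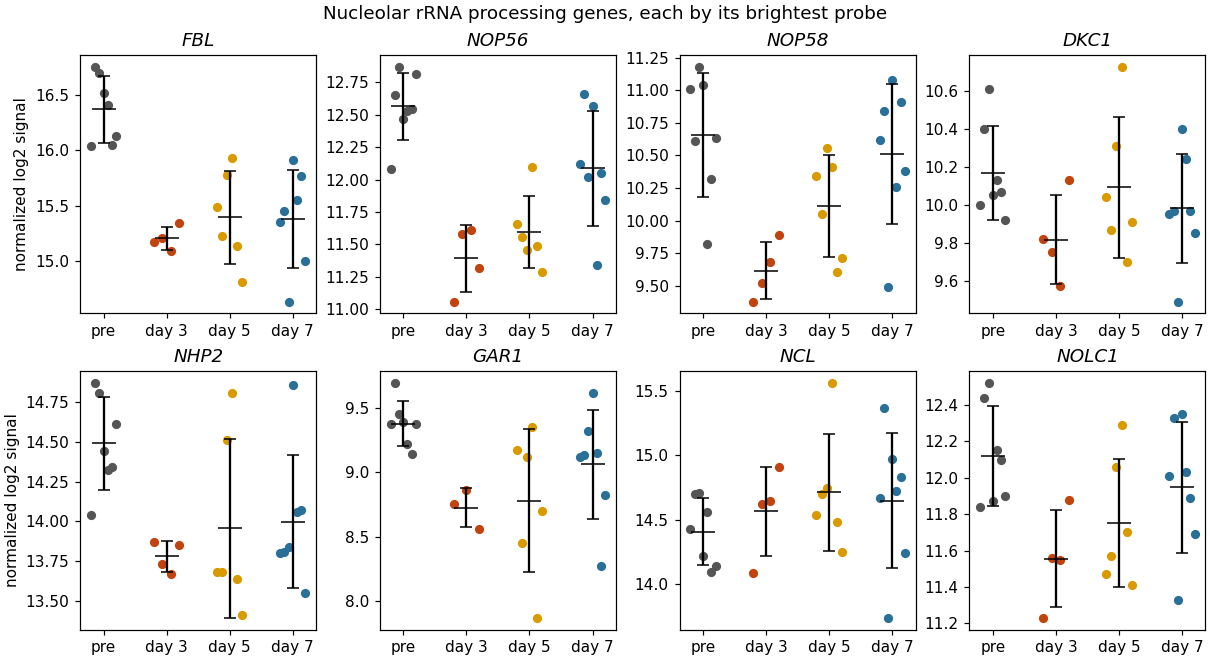
Normalized log2 signal of the 8 genes by group, each by its brightest probe; points are arrays and bars the mean ± SD, with 7 Pre-irradiation, 4 Day 3 (3 for GAR1), 6 Day 5 and 7 Day 7 arrays, and each panel has its own axis. With arrays shifted to the median array, FBL separates into Pre-irradiation arrays at 16.04 or above and irradiated arrays at 15.93 or below. The groups of DKC1, NCL and NOLC1 overlap on every day.

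NOP56, which with NOP58 holds the guide RNA in the box C/D particle, ran from 12.08 to 12.87 before irradiation with a median of 12.54 in its brightest probe, the middle one. At Day 3 the 4 arrays were at 11.06, 11.58, 11.61 and 11.32, and the 6 arrays of Day 5 ran from 11.29 to 12.10 with a median of 11.53. All Day 3 arrays and 5 of 6 Day 5 arrays lay below every Pre-irradiation array. The change was −1.17 ± 0.18 at Day 3 (2.25-fold lower, adjusted p = 0.000864) and −0.97 ± 0.16 at Day 5 (1.95-fold lower, adjusted p = 0.000563). At Day 7 the arrays ran from 11.34 to 12.66 with a median of 12.05, and the difference of −0.48 ± 0.20 did not pass (adjusted p = 0.0911). Day 7 replicate 5, the array scanned in session 2, was the lowest of them, with a log2 difference of −1.19 to its own first sample, whereas within session 1 the difference was −0.36. The part of the scan session in this was not tested. With the animal as a block the NOP56 change was −1.11 at Day 3 (adjusted p = 0.0117) and −0.97 at Day 5 (adjusted p = 0.00595), and with the session as a block the adjusted p was 0.0865 and 0.112. The Day 3 call was missed without replicate 4 (adjusted p = 0.00537) or replicate 7 (adjusted p = 0.00589).

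The 3 NOP56 probes were all below 0 at Day 3, and at Day 7 the probe starting at base 1891 was above 0. The probe starting at base 1891 was at −1.11 ± 0.24 at Day 3 (adjusted p = 0.00479), −0.67 ± 0.20 at Day 5 (adjusted p = 0.0198) and 0.25 ± 0.23 at Day 7 (adjusted p = 0.447). The probe starting at base 730 was at −0.63 ± 0.16 (adjusted p = 0.00903), −0.55 ± 0.16 (adjusted p = 0.0143) and −0.46 ± 0.16 (adjusted p = 0.0423). Of these values only the first, at base 1891 on Day 3, passed the threshold, and with the animal as a block it did not (−1.04, adjusted p = 0.0162). In levels, the probe at base 1891 lay between 11.41 and 12.56 before irradiation. It lay between 10.66 and 11.20 at Day 3, between 11.24 and 11.84 at Day 5, and between 11.80 and 13.06 at Day 7. All 7 arrays of Day 7 lay above all 4 of Day 3, a difference of 1.36 ± 0.24 (adjusted p = 0.00597), which did not pass. Replicate 5, from session 2, gave the lowest Pre-irradiation level (11.41) and the lowest Day 7 level (11.80). All Day 3 arrays lay below 11.41, and Day 5 arrays lay on both sides of it. Day 3 and Day 5 were scanned wholly in session 2, and the part of the session was not tested.

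Within an array, the signal at base 1891 minus that at base 730 was a log2 difference between 1.25 and 2.26 before irradiation. The gap lay between 1.22 and 1.49 at Day 3, between 1.53 and 1.84 at Day 5, and between 1.84 and 3.21 at Day 7. Against Pre-irradiation its mean differed by −0.47 at Day 3 and 0.71 at Day 7. The lowest gap of Pre-irradiation (1.25) and of Day 7 (1.84) was in replicate 5, the 1 array of each group from session 2. All Day 3 and Day 5 arrays came from that session, and its part in the gap was not tested. The Day 5 range lay inside the Pre-irradiation range, and the ranges of Day 3 and Day 7 overlapped with it. The gap was chosen after its values were seen and is given as a description, with no test.

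**Figure D3:**
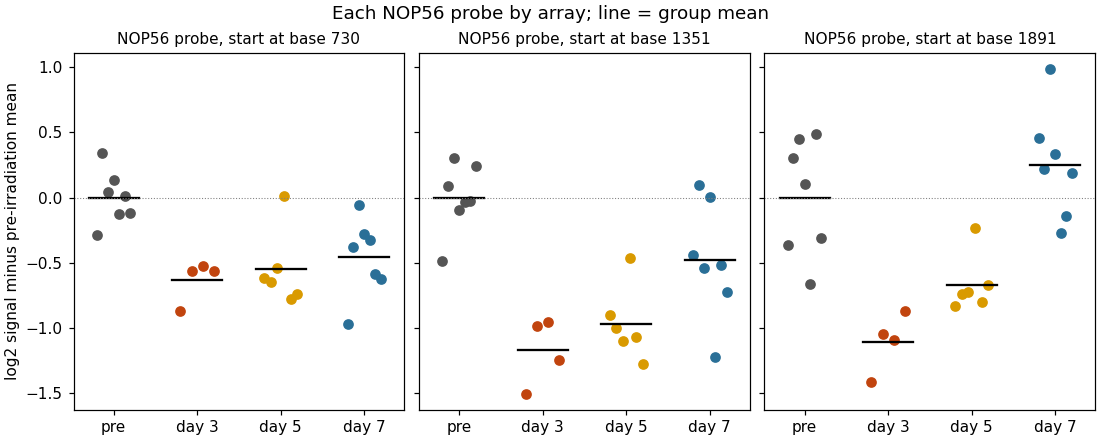
Log2 signal of the 3 NOP56 probes minus each probe's Pre-irradiation mean, by array (points) and group mean (lines), with the probes ordered by their start in the transcript. At Day 7 the group mean is −0.46 at base 730, −0.48 at base 1351 and 0.25 at base 1891, whereas all 3 are between −0.63 and −1.17 at Day 3. All Day 3 and Day 5 arrays, with replicate 5 of the other groups, were scanned in session 2.

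NOP58, the partner of NOP56, was at 11.01, 10.61, 11.18, 11.04, 9.82, 10.32 and 10.63 before irradiation in replicates 1 to 7. At Day 3 it was at 9.38, 9.52, 9.68 and 9.89. The first sample of replicate 5 differed from the mean of the other 6 by −0.97 (log2), and without it the groups would not overlap at Day 3. The changes were −1.04 ± 0.25 at Day 3 (adjusted p = 0.00801), −0.54 ± 0.24 at Day 5 (adjusted p = 0.089) and −0.15 ± 0.26 at Day 7 (adjusted p = 0.712), none past the threshold. Without replicate 5 the Day 3 value was −1.18 (adjusted p = 0.00184) and passed, and with the animal as a block the Day 5 value was −0.68 (adjusted p = 0.00378) and passed. That array is also the only Pre-irradiation array of session 2, and against it alone NOP58 was −0.21 at Day 3 and 0.29 at Day 5, so the direction within the session differs at Day 5. Day 5 ran from 9.61 to 10.56 and Day 7 from 9.49 to 11.08, the lowest being replicate 3, without which the Day 7 value was 0.11 (adjusted p = 0.767).

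SNU13, the core protein that binds the guide RNA first, was outside the chosen names and was tested as the remaining box C/D protein. Its changes were −0.28 ± 0.17 (adjusted p = 0.215), −0.48 ± 0.16 (adjusted p = 0.0346) and −0.68 ± 0.17 (adjusted p = 0.0093) on the 3 days in turn. None passed, and all 7 arrays of Day 7 lay below all Pre-irradiation arrays.

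**Figure D4:**
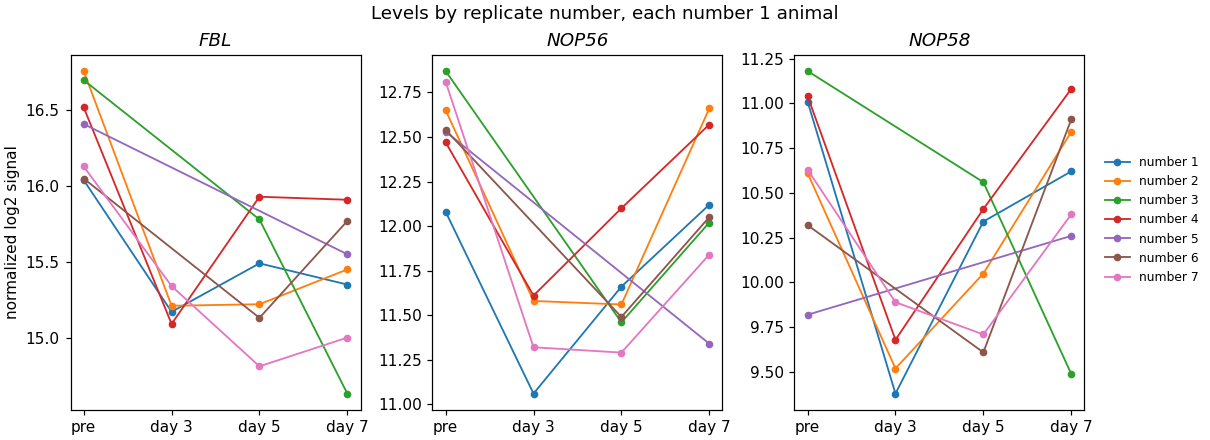
Normalized log2 signal of FBL, NOP56 (brightest probe) and NOP58 before irradiation and at Day 3, Day 5 and Day 7, with 1 line per replicate number; the axis steps are time points and not to scale, and lines skip days without an array. FBL ends below its start in 7 of 7 animals, NOP56 in 4 of 7 and NOP58 in 3 of 7.

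Of the H/ACA proteins, none passed the threshold on any day. DKC1, the pseudouridine synthase, ran from 9.92 to 10.61 before irradiation and was at 9.82, 9.75, 9.57 and 10.13 at Day 3. Its changes were −0.35 ± 0.18 (adjusted p = 0.138), −0.07 ± 0.18 (adjusted p = 0.784) and −0.19 ± 0.16 (adjusted p = 0.428) at Day 3, Day 5 and Day 7. Arrays of DKC1 overlapped between the groups on every day.

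NHP2, which binds the guide RNA in the H/ACA particle, ran from 14.04 to 14.87 before irradiation and was at 13.87, 13.73, 13.67 and 13.85 at Day 3. All 4 arrays lay below all 7, and the change of −0.71 ± 0.18 did not pass (adjusted p = 0.00943). It was −0.53 ± 0.24 at Day 5 (range 13.41 to 14.81, adjusted p = 0.0948) and −0.49 ± 0.20 at Day 7 (range 13.55 to 14.86, adjusted p = 0.0804). With quantile normalization these were −0.29 and −0.08, and with normexp −0.25 and −0.07.

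GAR1, which contacts the synthase, ran from 9.14 to 9.69 before irradiation and was at 8.75, 8.86 and 8.56 at Day 3 in replicates 1, 4 and 7. Its spot on the array of Day 3 replicate 2 was marked as an outlier by the scanner software and was dropped. With that spot kept, the Day 3 change was 0.09 (adjusted p = 0.897). Without it, the 3 arrays lay below all 7, with a change of −0.65 ± 0.17 (adjusted p = 0.0121), followed by −0.60 ± 0.22 at Day 5 (adjusted p = 0.0452) and −0.32 ± 0.19 at Day 7 (adjusted p = 0.217). At Day 5 it ranged from 7.87 to 9.35. Counted over the 8 genes, 4 had every Day 3 array below every Pre-irradiation array (FBL, NOP56, NHP2 and, with the spot dropped, GAR1) against 12.1% of all genes, 1 at Day 5 against 8.31% and 1 at Day 7 against 6%, FBL in both.

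The nucleolar scaffold NOLC1 ran from 11.84 to 12.52 before irradiation and was at 11.23, 11.56, 11.55 and 11.88 at Day 3. Its changes of −0.56 ± 0.19 (adjusted p = 0.0359), −0.37 ± 0.18 (adjusted p = 0.132) and −0.17 ± 0.18 (adjusted p = 0.522) did not pass. The other NOLC1 probe was nearer to 0, at −0.34, −0.05 and 0.12.

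The brightest probe named NCL had levels of 14.10 to 14.71 before irradiation and 14.09, 14.62, 14.65 and 14.91 at Day 3. Its changes were 0.16 ± 0.20, 0.31 ± 0.20 and 0.24 ± 0.22, with adjusted p of 0.547, 0.256 and 0.45. With quantile normalization they were 0.27, 0.58 (adjusted p = 0.033) and 0.70 (adjusted p = 0.0266), and with normexp 0.27, 0.61 and 0.73, none past the threshold. The probe that reads the polyadenylation hexamer was at −0.32, −0.27 and 0.03, and the dim probe at −0.10, 0.29 and 0.65, none past the threshold. The probes with this name thus differ in sign at Day 3 and Day 5.

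The days after irradiation were also compared with each other, to ask whether the levels moved within the week. No member passed in any of the 3 comparisons by limma, against 0.0368% of all genes between Day 5 and Day 3, 1.6% between Day 7 and Day 3 and 0.00919% between Day 7 and Day 5. At an unadjusted p under 0.05 there were 0, 2 and 1 of 8 members, against 11.1, 34.3 and 21% of all genes, so no count exceeded the background share. Between Day 7 and Day 3 all 8 values were above 0, with a median of 0.28 where all genes had −0.02. The members with an unadjusted p under 0.05 were NOP58 with 0.89 ± 0.28 (adjusted p = 0.051), higher at Day 7 in 4 of 4 animals, and NOP56 with 0.69 ± 0.25 (adjusted p = 0.0816), also in 4 of 4. FBL differed by 0.18 ± 0.24 between Day 7 and Day 3 (adjusted p = 0.651). Whether FBL differs from NOP58 in its course was not tested. All Day 3 arrays and all but 1 of the Day 7 arrays were scanned in different sessions, and against the Day 7 array of session 2 alone the difference to Day 3 was 0.64 for NOP58, −0.05 for NOP56 and 0.34 for FBL.

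Sex could be compared at Day 7, with 4 males and 3 females. The Day 7 change of no member differed between the sexes by limma at an adjusted p under 0.05, where 0% of all genes did, and none had an unadjusted p under 0.05, as 7.43% of all genes did. The largest differences were in NOP56, at −0.88 in females and −0.17 in males (adjusted p = 0.588), and in NOP58, at 0.26 in females and −0.45 in males (adjusted p = 0.687).

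Over the 24 arrays the levels of the 8 genes were correlated, least so for NCL (median r of 0.267 with the other members). The correlation of the 28 pairs had a median Pearson r of 0.613 and ran from 0.0366 to 0.843, and after the group means were taken out the median was 0.539 with a range from 0.235 to 0.885. All points share their array's normalization and blood composition, so these values are a description. No value for pairs of other genes stands beside them, so they are not shown to be particular to these genes. The mean of the 8 centred levels was highest in Pre-irradiation replicate 3 (0.66) and lowest in Day 3 replicate 1 (−0.52). At Day 5 it was −0.51 in replicate 7 and 0.45 in replicate 4, and at Day 7 −0.46 in replicate 3 and 0.52 in replicate 4, so the highest arrays of both days came from replicate 4.

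The genes whose levels were most like that mean among 10646 ranked genes were RANBP1 (r = 0.945), a cofactor of the Ran transport GTPase, ZNHIT3 (r = 0.943), an assembly factor of box C/D particles, PRMT5 (r = 0.934), an arginine methyltransferase, EIF2B4 (r = 0.929), a subunit of the exchange factor of translation initiation, and GTPBP4 (r = 0.927), a GTPase of large subunit assembly. Their log2 changes at Day 3 were −0.96, −0.85, −0.61, −0.39 and −0.74 in this order, and −0.49, −0.48, −0.18, −0.07 and −0.15 at Day 7. These genes were picked by their likeness to the members on the same arrays. The direction of their changes follows from that choice and is given as a description.

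The rest of the pathway was read from 5 lists, each gene by its brightest probe and beside the same background of all genes. Of 13 tested factors that assemble the box C/D and H/ACA particles, SNU13 included, 2 were lower at Day 3 (RUVBL1, an ATPase, at −0.97 and ZNHIT3 at −0.85), and 1 at Day 5 and 1 at Day 7 (PIH1D1, a chaperone adaptor, at −1.33 and −1.22). Their median change was −0.67, −0.44 and −0.14, beside −0.68, −0.54 and −0.25 for the 8 genes. Of 41 genes of the small subunit processome, the particle that cuts the precursor around the small subunit RNA, 4 were lower at Day 3, 1 at Day 5 and none at Day 7, and 1 was higher at Day 7 (RRP12 at 1.53). PNO1, MPHOSPH10 and WDR3 were lower at Day 3 (−1.38, −1.16 and −1.16). The same 3 were higher at Day 7 than at Day 3 (1.37, 1.19 and 1.29), where 0.368% of all genes were higher. They were the only calls between Day 7 and Day 3 in the 5 lists. Both comparisons share the Day 3 arrays, so genes picked as low at Day 3 tend to be higher against it. All Day 3 arrays and all but 1 of the Day 7 arrays were scanned in different sessions. The part of the session in these values was not tested. The median of this list was −0.47, −0.30 and 0.05.

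Of 40 large subunit assembly genes, 7 were lower at Day 3, 8 lower and 1 higher at Day 5, and 2 lower at Day 7. PES1, which acts in the maturation of the large subunit RNAs, had the largest change among the genes of this list that passed, at −2.20, −2.33 and −1.98, and WDR18 was the higher one at 0.98. Of 17 subunits and factors of RNA polymerase I, 2, 3 and 3 were lower, among them POLR1E at −2.41, −2.82 and −2.10. Of 22 exosome, RNase MRP and other nuclease genes, 1, 0 and 1 were lower, C1D in both cases (−0.92 and −0.73). The summed linear signal, as a median over arrays, was lowest at Day 3 in the processome list alone (76212 against 88567 before irradiation). It was lowest at Day 7 in large subunit assembly (336526 against 422956, with 464392 at Day 3) and RNA polymerase I (51654 against 87901). For the assembly factors (43360 against 79492) and the nucleases (41504 against 48297) it was lowest at Day 5. The counts in the 5 lists can be read against all genes, of which 7.58% were lower at Day 3, 9.12% lower and 6.24% higher at Day 5, and 7.18% lower and 2.67% higher at Day 7. Blocking on the animal left 1.89% of all genes lower at Day 3, and of the genes that passed at Day 3 in the 5 lists only PES1 did (−2.07, adjusted p = 0.00338). POLR1E then had an adjusted p of 0.00801 at Day 3, the 3 processome genes named above had 0.00995 to 0.0211 at Day 3 and 0.0153 to 0.0181 between Day 7 and Day 3, and C1D had 0.0159 and 0.0137. At Day 5 and Day 7 the calls of PES1, POLR1E, PIH1D1, WDR18 and RRP12 were kept. The Day 5 call of FCF1, the lower processome gene of that day, was lost (adjusted p = 0.00649).

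**Figure D5:**
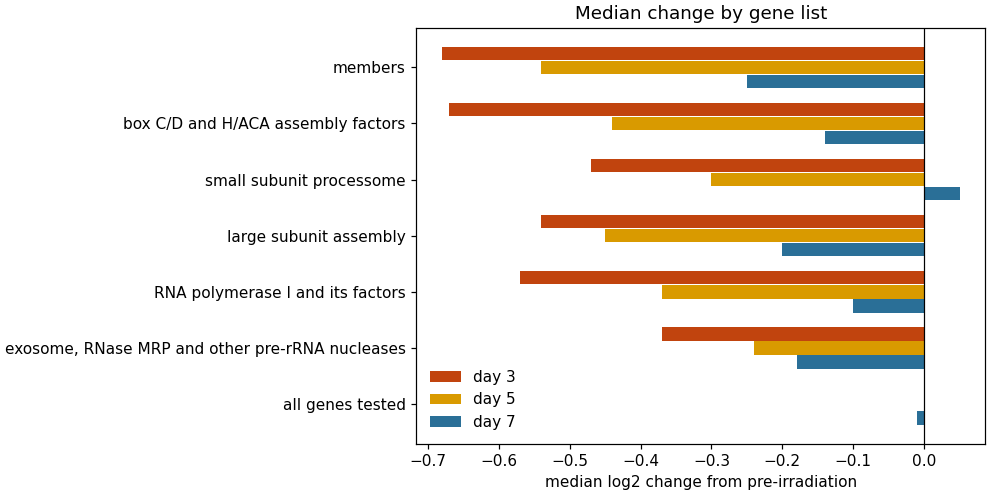
Median log2 change from Pre-irradiation at Day 3, Day 5 and Day 7 for the 8 genes (members), for the 5 pathway lists (13, 41, 40, 17 and 22 tested genes) and for all tested genes. In every list the median log2 change is lowest at Day 3 and nearest to 0 at Day 7. The summed linear signal was lowest at Day 3 in the processome list alone. The members are at −0.68, −0.54 and −0.25 (−0.51, −0.31 and −0.09 with normexp) and all genes at 0, 0 and −0.01.

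Markers of blood cells moved in the same arrays. Of 10 tested B cell markers, 10 were lower at Day 3, 10 at Day 5 and 9 at Day 7, with a summed linear signal of 35568 to 47058 per Pre-irradiation array, then 2145 to 5345, 2502 to 4097 and 3295 to 7026 on the 3 days, and PAX5 was not well above background on any array. Of 14 T cell markers, 4, 2 and 0 were lower, with a summed signal of 202348 to 419608, then 109385 to 161885, 143194 to 208744 and 177410 to 298658. The median log2 change over the 3 days was −0.65, −0.36 and 0.04 for T cell markers, 0.41, 0.18 and 0.01 for NK cell markers, 0.91, 0.46 and 0.05 for monocyte markers and 2.95, 1.07 and 0.15 for platelet markers, each nearest to 0 at Day 7 as the members' median was. It was −3.23, −3.62 and −3.58 for B cell markers, −3.67, −6.18 and −4.96 for erythroid markers and 0.98, 1.02 and 0.99 for neutrophil markers. Erythroid markers were lower in 8, 9 and 9 of 9, and platelet markers higher in 9, 2 and 0 of 9. Neutrophil markers were higher in 3, 3 and 2 of 12 and monocyte markers in 2, 2 and 1 of 9, and of 10 NK cell markers none passed on any day. These counts stand beside the shares of all genes given above. With the animal as a block, where 1.89, 8.73 and 6% of all genes were lower and 1.49, 5.35 and 2.12% higher on the 3 days, 1, 2 and 0 T cell markers were lower, platelet markers were higher in 8, 4 and 0, neutrophil markers in 1, 3 and 1 and monocyte markers in 1, 1 and 0, whereas 10, 10 and 9 B cell markers and 8, 9 and 8 erythroid markers were lower. The part of these cell types in the values of the 8 genes was not tested.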

How the data were processed

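RNA of whole blood was measured on 24 arrays. The authors extracted the images with Agilent Feature Extraction, version 10.7 per the labels and 12.0.2.2 per the file headers, and the deposited scanner files hold a processed intensity per spot on a linear scale, with background subtracted. The array design in the file headers is a rhesus design, and the methods name a human array. The authors' deposited series matrix holds log2 values normalized to the median array, which differ from the log2 scanner intensity by 1 constant per array, and it has 18497 rows matched to probes here.

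The processed intensity was taken to log2, spots marked as outliers were left out, spots of 1 probe were averaged, and arrays were centred on the median array, from which they differed by −2.03 to 0.87. The files named 23054 of 43603 probes, accessions named 898 more, and 19651 had no symbol. A probe entered the tests when at least 4 of 24 arrays had it well above background, as 27133 did. Each day was compared with Pre-irradiation, and the days with each other, in fits of 2 groups with limma 3.58.1 (R 4.3.3, statmod 1.5.0) at a Benjamini-Hochberg adjusted p under 0.005, two-sided, as the methods set it, and sex at 0.05. The code was tested on simulated data. Files were read with pandas 2.3.3 and numpy 2.4.6, and figures drawn with matplotlib 3.10.9, in Python 3.11.15.

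The members and lists were chosen with earlier results of these data known. Genes named are the members and SNU13, the 5 genes most correlated with the members' mean, and at most 3 called genes per pathway list and day with the largest change. Arrays of the same replicate number deviated together from their group means (r from 0.134 to 0.414 over 4 pairs at Day 3, 0.171 to 0.454 over 6 at Day 5 and 0.132 to 0.439 over 7 at Day 7), so the numbers pair the samples as animals, and blocked fits of the members, the lists and the markers are given where they change a call. Alternatives were other normalizations, the authors' log2 values, other filters, all probes of a gene averaged, 1 fit of all groups, blocks for animal, slide and scan session, and each replicate left out.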

Additional observations from a re-analysis of the deposited data

Results flagged for a closer look

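The level of NHP2 at Day 7 in replicate 4 was 14.86, far above the other 6 arrays of that day, of which the nearest was at 14.07 and the lowest at 13.55. The gap was 0.601 of the group's whole range. It was the only one of 31 sets of arrays (8 genes in the groups of 4 to 7 arrays) set apart in this way, and chance sets apart about 1 in 20. That array also had the highest mean of the 8 genes at Day 7 (0.52).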

How the results depend on the processing

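No change that passed the threshold turned its direction under any alternative run, whereas 5 values that had not passed did: GAR1 at Day 3 to 0.21 with normexp and to 0.09 with flagged spots kept, NCL at Day 3 to −0.09 with the mean of its probes and to −0.07 in the authors' values, which were read for NCL by its dim probe alone (−0.10 in the scanner values), so that the probe changed as well as the normalization, NOP58 at Day 5 to 0.29 with the session block and at Day 7 to 0.11 without replicate 3 (from −0.27 with each replicate left out), and DKC1 at Day 5 to 0.01 without replicate 2 (from −0.22). The number of members changed at Day 3 was 0 with the replicate block and with the scan session as a block. At Day 5 it was 1 with quantile normalization and with the authors' normalized values (5 members) and 0 with the session block, and with the replicate block FBL stayed past the threshold, NOP58 was added and NOP56 was lost. At Day 7 it was 0 with quantile normalization, normexp, the authors' values, no filter on dim probes and the replicate block. The median of the members moved to −0.31 at Day 5 with normexp and, at Day 7, to −0.09 with normexp and −0.13 with quantile normalization. Over the 5 members in the authors' values, NCL by its dim probe, it was −1.01 at Day 3 and −0.46 at Day 7. NOLC1 at Day 7 was −0.04 with quantile normalization and −0.03 with normexp, and NOP56 at Day 7 −0.32 and −0.30.

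With each replicate left out in turn, the count ran from 0 to 3 at Day 3 (0 without replicate 4, where the adjusted p was 0.00918 for FBL and 0.00537 for NOP56, 1 without replicate 7, and NOP58 added without replicate 5), from 1 to 2 at Day 5 and from 0 to 1 at Day 7. The Day 7 call of FBL was lost without replicate 1, 2, 3, 5 or 7, with an adjusted p of 0.00818 to 0.0113 and a change of −1.05 to −0.81, and its Day 5 call without replicate 1, 2, 3, 6 or 7 (0.00541 to 0.0135). The medians ran from −0.74 to −0.62, −0.63 to −0.44 and −0.34 to −0.19. Counts between days and between sexes were 0 throughout. A session block for Day 5 against Day 3 could not be fitted, since both lie in 1 session. The number of arrays, and 1 Pre-irradiation array in session 2, limit what can be said at Day 3 and Day 5. The replicate block was run for the lists, the markers and the other probes of the members after seeing the data. In the 5 pathway lists together it left 1 of 16 lower calls at Day 3, where 206 of all genes were lower against 825 without it. It left 0 of 3 higher calls between Day 7 and Day 3. At Day 5 the lower processome gene FCF1 lost its call (−0.81, adjusted p = 0.00649 by limma), and 2 other processome genes were lower. Of the large subunit assembly genes, 7 were lower at Day 5 with the block and 8 without.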
